A study of Mus musculus with 4 samples.

Results

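The genes described here mark the deep layers of the cerebral cortex, which hold its earliest-born projection neurons. They are Fezf2, Bcl11b, Tbr1, Sox5, Foxp2, Zfpm2, Ldb2, Etv1, Hs3st4 and Nr4a2. These 10 genes were found by their symbols in the GENCODE M21 annotation among the 34866 gene identifiers of the count table. All 10 had enough counts to be tested, among 14050 genes that did.

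Transcripts were sequenced from cultures of neural stem and progenitor cells, which divide and give rise to neurons and glia. The cells were taken at E11.5 from wild-type mouse dorsal telencephalon, where the cortex arises. They grew for 5 days as neurospheres, balls of cells that float in medium with basic fibroblast growth factor. The shControl group received 1 lentiviral vector with a control short hairpin RNA at a multiplicity of infection of 30, and the triple knockdown group received 3 vectors, each at 10, whose hairpins targeted Phf21b, Zfp7 and Zfp57. Both groups thus carried virus at a total of 30. Per the labels, the vectors for Zfp7 and Zfp57 had another backbone than the control vector, so backbone and number of vectors cannot be told apart from the knockdown. Each group had 2 libraries. No label says that they came from separate cultures, so p-values reflect the spread of these libraries alone, and that spread may be technical. The series title concerns the timing of neuron subtype production, and the comparison addresses whether genes of the early-born subtypes differ when the 3 factors are targeted together.

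Projection neurons send long axons out of their own area of cortex. Cortical progenitors make them in a fixed order, deep layers first and upper layers later. Layer 5 holds subcerebral neurons, which project to the brainstem and spinal cord, and layer 6 holds corticothalamic neurons. Beneath them lies the subplate, a layer of very early neurons. Fezf2 and Tbr1 encode transcription factors that specify subcerebral and corticothalamic identity and restrain each other's programme. Several of the genes are not confined to these neurons in the embryo: Bcl11b and Foxp2 are also active in developing striatal neurons, and Etv1 is a target of fibroblast growth factor signalling in dividing cells.

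The libraries held between 14694387 and 20779211 estimated counts. Transcripts of the 3 targeted genes stood at 75.6% (Zfp57), 77.6% (Zfp7) and 81.6% (Phf21b) of the control level, and none of the 3 differences passed the test over all genes (adjusted p = 0.341, 0.80 and 0.644). For Zfp7 the groups overlapped, at 1.67 and 2.25 CPM in shControl and 1.97 and 0.977 CPM in the knockdown, so its lower mean rests on knockdown replicate 2. Mitochondrially encoded genes took 30.3% and 33.9% of counts in shControl and 26.6% and 28.5% in the knockdown, lower in both knockdown libraries, and without them 0 of the 10 deep-layer genes passed and their median change was again -0.19. Levels are in CPM, counts scaled to a common library total after each total was multiplied by its TMM factor, a correction that edgeR computes per library. The factors were 1.04 and 0.907 in shControl and 1.05 and 1.01 in the knockdown. CPM values, their sums and the group separations are thus not those of scaling by total count. Fold changes are triple knockdown over shControl. A gene passed the test when edgeR's quasi-likelihood test, adjusted over all tested genes, gave a p under 0.05.

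No deep-layer gene passed the test, 0 of 10, against 1.37% of all tested genes. At an unadjusted p under 0.05, 2 of the 10 were lower and 0 higher, where 6.85% and 5.14% of all tested genes were. They were Tbr1 and Fezf2. Fold changes were below 0 for 8 of the 10 genes (also 8 with scaling by total count), against 51.1% of all tested genes, and the median log2 fold change was -0.19, against -0.01 over all tested genes. With scaling by total count these medians were -0.10 and 0.07, and without shControl replicate 1 the median of the 10 was -0.28. For 4 of the 10, the knockdown pair lay wholly below the control pair, against 21.7% of all tested genes. Those 4 were Fezf2, Tbr1, Hs3st4 and Sox5. Such separation was not particular to the deep-layer genes. Among the lists described further on, it held for 10 of 15 pan-neuronal, 6 of 10 other layer 6, 5 of 9 upper-layer and 5 of 9 GABAergic genes. It was less frequent in radial glia genes (3 of 10), other layer 5 genes (1 of 13) and other subplate genes (1 of 9). For 0 of the 10 did the knockdown pair lie wholly above, which it did for 19.6% of all tested genes. These separations were read on TMM-scaled levels only. They were not counted over all tested genes with scaling by total count, where the groups overlapped for both Sox5 and Hs3st4. Sox5 had 95 of 14694387 counts in shControl replicate 2 and 125 of 17901386 in triple knockdown replicate 1, a higher share. For Hs3st4 these were 37.0 and 45.9 of the same totals, also a higher share in the knockdown library. In bulk RNA, fewer cells of a type and less RNA per cell cannot be told apart.

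**Figure D1:**
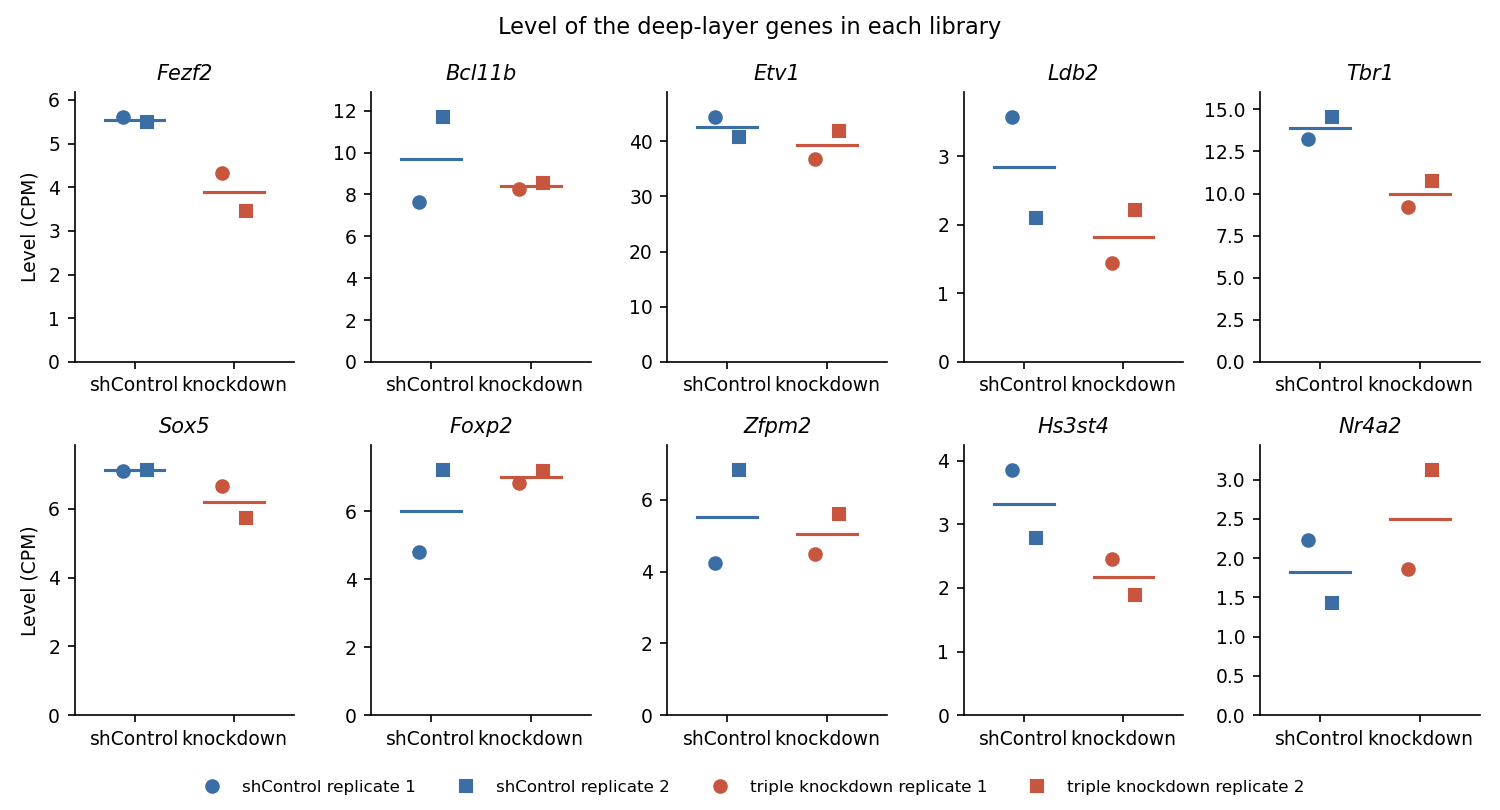
Level of each deep-layer gene in CPM, with 1 panel per gene and a y axis from 0 in each; circles are replicate 1, squares replicate 2 and lines the mean of 2 libraries. The knockdown points lie below both control points for Fezf2, Tbr1, Sox5 and Hs3st4, and the groups overlap for the other 6 genes. With scaling by total count the groups of Sox5 and Hs3st4 overlapped as well.

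Among the genes of subcerebral neurons, Fezf2 stood lower without passing the test and Ldb2 had the most negative fold change of the 10. Fezf2, the zinc-finger factor that directs neurons to the subcerebral fate (ENSMUSG00000021743.6, chromosome 14, 12342094 to 12348189 in GRCm38), measured 5.62 and 5.48 CPM in shControl and 4.32 and 3.45 CPM in the knockdown. Both control libraries were nearly equal and both knockdown libraries were lower. Its mean went from 5.55 ± 0.0962 to 3.89 ± 0.611 CPM (SD, n = 2 each), a log2 fold change of -0.51 (SE 0.25, edgeR adjusted p = 0.387). The knockdown level was thus 70.3% of control (95% interval 50.1% to 98.6%).

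Ldb2, a LIM-domain-binding cofactor enriched in subcerebral neurons (ENSMUSG00000039706.11, chromosome 5, 44472132 to 44799680), measured 3.58 and 2.10 CPM in shControl and 1.44 and 2.21 CPM in the knockdown. The groups overlap, because shControl replicate 2 was below knockdown replicate 2. On the log2 scale the change was -0.68 (SE 0.35, edgeR adjusted p = 0.426). These values rest on 27 to 77 counts per library, and the 2 control libraries differed from each other by more (0.77 on the log2 scale) than the groups did.

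Bcl11b encodes the zinc-finger factor also called Ctip2, which acts downstream of Fezf2 in corticospinal axon growth (ENSMUSG00000048251.15, chromosome 12, 107910403 to 108003602). It measured 7.62 and 11.7 CPM in shControl and 8.26 and 8.53 CPM in the knockdown. Both knockdown libraries fell between the control libraries. The estimate was -0.18 on the log2 scale (SE 0.20, edgeR adjusted p = 0.801), with an interval from 66.7% to 117% of control.

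Etv1, an ETS-family factor that marks layer 5 (ENSMUSG00000004151.17, chromosome 12, 38779380 to 38870484), was the most abundant of the 10. It measured 44.4 and 40.8 CPM in shControl and 36.8 and 41.8 CPM in the knockdown. The groups overlap, since knockdown replicate 2 exceeded shControl replicate 2. Its log2 change of -0.12 had an SE of 0.14 (edgeR adjusted p = 0.814). The interval, from 75.7% to 112% of control, was the narrowest of the 10 relative to the estimate. Of its 31-base stretches, 10.0% also occur in another gene.

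Among the genes of corticothalamic neurons, Tbr1 and Hs3st4 stood lower without passing the test, Sox5 differed little, and Foxp2 and Zfpm2 overlapped between groups. Tbr1, the T-box factor that specifies layer 6 neurons (ENSMUSG00000035033.15, chromosome 2, 61802930 to 61814114), measured 13.2 and 14.6 CPM in shControl and 9.22 and 10.7 CPM in the knockdown. The groups were apart by more than the libraries within either group. The mean went from 13.9 ± 0.945 to 9.99 ± 1.08 CPM (SD, n = 2 each), a log2 fold change of -0.48 (SE 0.18, edgeR adjusted p = 0.21). This was the smallest p-value of the 10 genes, with a level at 71.9% of control and an interval of 55.9% to 92.4%.

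Hs3st4, a sulfotransferase that modifies heparan sulfate chains and marks layer 6 (ENSMUSG00000078591.1, chromosome 7, 123982869 to 124398989), measured 3.86 and 2.78 CPM in shControl and 2.45 and 1.89 CPM in the knockdown. Both knockdown libraries were lower, though shControl replicate 2 lay close to knockdown replicate 1. The fitted log2 change was -0.62 (SE 0.32, edgeR adjusted p = 0.426). The antisense gene Gm27040 overlaps 4.08% of its exonic bases.

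Sox5, an HMG-box factor that controls the order in which deep-layer subtypes form (ENSMUSG00000041540.16, chromosome 6, 143828425 to 144781977), measured 7.11 and 7.14 CPM in shControl and 6.66 and 5.73 CPM in the knockdown. Knockdown replicate 1 lay only slightly below the control libraries. The estimate was -0.20 on the log2 scale (SE 0.22, edgeR adjusted p = 0.799). The antisense gene Sox5os1 overlaps 9.25% of its exonic bases. The sources used here do not say whether the libraries kept strand.

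Foxp2, a forkhead factor of layer 6 known for its part in vocal learning (ENSMUSG00000029563.16, chromosome 6, 14901349 to 15441977), measured 4.78 and 7.21 CPM in shControl and 6.82 and 7.17 CPM in the knockdown. The control library of replicate 1 was the low value, and the other 3 libraries were close together. Here the log2 change was 0.25 (SE 0.22, edgeR adjusted p = 0.733).

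Zfpm2, also called Fog2, is a cofactor of GATA factors that is expressed in corticothalamic neurons (ENSMUSG00000022306.9, chromosome 15, 40655035 to 41104592). It measured 4.23 and 6.84 CPM in shControl and 4.48 and 5.60 CPM in the knockdown. The control libraries were the lowest and the highest of the 4. The difference was -0.11 on the log2 scale (SE 0.24, edgeR adjusted p = 0.912).

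The subplate gene among the 10 was Nr4a2, or Nurr1, a nuclear receptor also known from dopaminergic neurons (ENSMUSG00000026826.13, chromosome 2, 57106830 to 57124003). It measured 2.23 and 1.43 CPM in shControl and 1.87 and 3.13 CPM in the knockdown, from 19 to 48 counts per library. The groups overlap, with both the lowest and the second highest value in shControl. Its log2 fold change of 0.40 (SE 0.36, edgeR adjusted p = 0.735) was the most positive of the 10 and had the widest interval, from 80.0% to 217% of control.

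Replicates often differed by as much as the groups. For 7 of the 10 genes, the 2 libraries of at least 1 group differed by more than the groups did. The other 3 were Fezf2, Hs3st4 and Tbr1. This was not counted over all tested genes, so 7 of 10 may be an ordinary share. The control libraries did not differ in one direction: Bcl11b, Foxp2 and Zfpm2 were higher in replicate 2, with log2 ratios of replicate 1 to 2 of -0.62, -0.59 and -0.69, and Hs3st4, Ldb2 and Nr4a2 were higher in replicate 1, at 0.47, 0.77 and 0.64. With its SE, Etv1 would have needed a log2 fold change of 0.50 in size to reach the largest p-value that passed over all genes (6.60e-04), Tbr1 0.65 and Fezf2 0.87. At the other end, Hs3st4 would have needed 1.12, Ldb2 1.24 and Nr4a2 1.28. In 4 of the 10 genes the 95% interval reached past that size, so a change large enough to pass was within the measurement error. Those genes, all with a negative estimate, were Ldb2, Hs3st4, Fezf2 and Tbr1. Interval and needed size both derive from the same SE, so these are the 4 genes with the smallest p-values. The count is thus no separate evidence of missed changes.

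**Figure D2:**
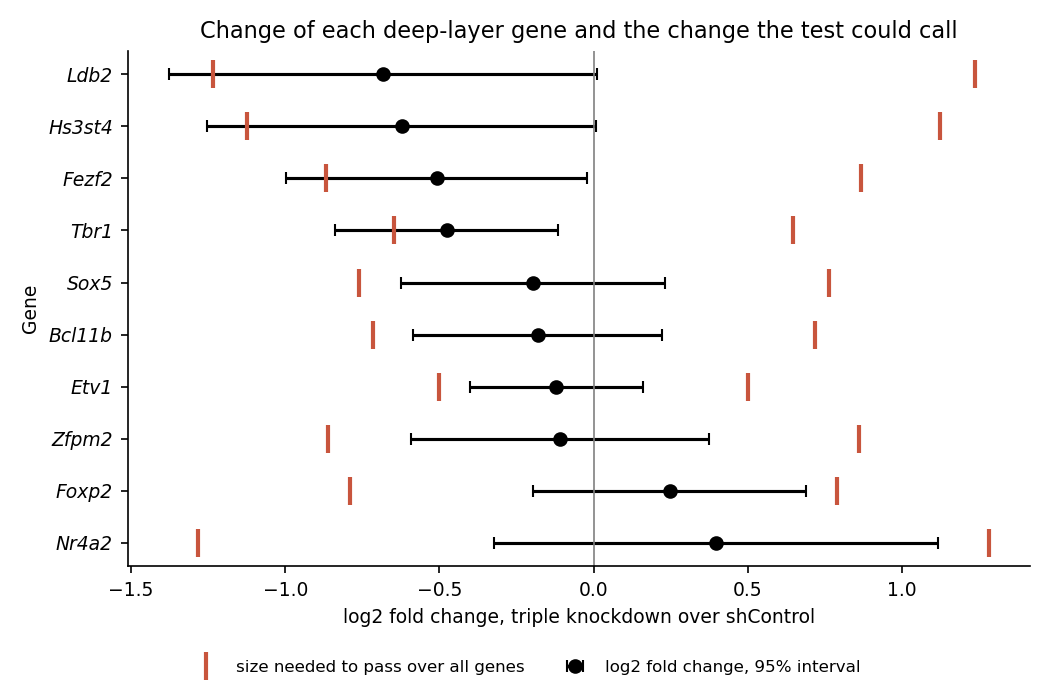
Log2 fold change of each deep-layer gene, triple knockdown over shControl, with its 95% interval from the edgeR SE; red ticks mark the size each gene would have needed to pass over all genes. All 10 points lie inside the ticks, and the intervals of Tbr1 and Fezf2 are the only 2 that lie wholly below 0.

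Leaving out 1 library at a time moved the estimates without making any of the 10 pass. Tbr1 ranged from -0.59 to -0.37 on the log2 scale and Fezf2 from -0.69 to -0.36, and Sox5 from -0.31 to -0.10. For Ldb2 the range was wider, from -1.01 without triple knockdown replicate 2 to -0.22 without shControl replicate 1, and for Hs3st4 it was -0.83 to -0.35. Bcl11b changed direction to 0.15 without shControl replicate 2. Zfpm2 changed direction to 0.26 without shControl replicate 2 and to 0.05 without triple knockdown replicate 1. Foxp2 changed direction to -0.05 without shControl replicate 1. Nr4a2 was at 0.78 without shControl replicate 1 and at 0.001 without triple knockdown replicate 2.

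**Figure D3:**
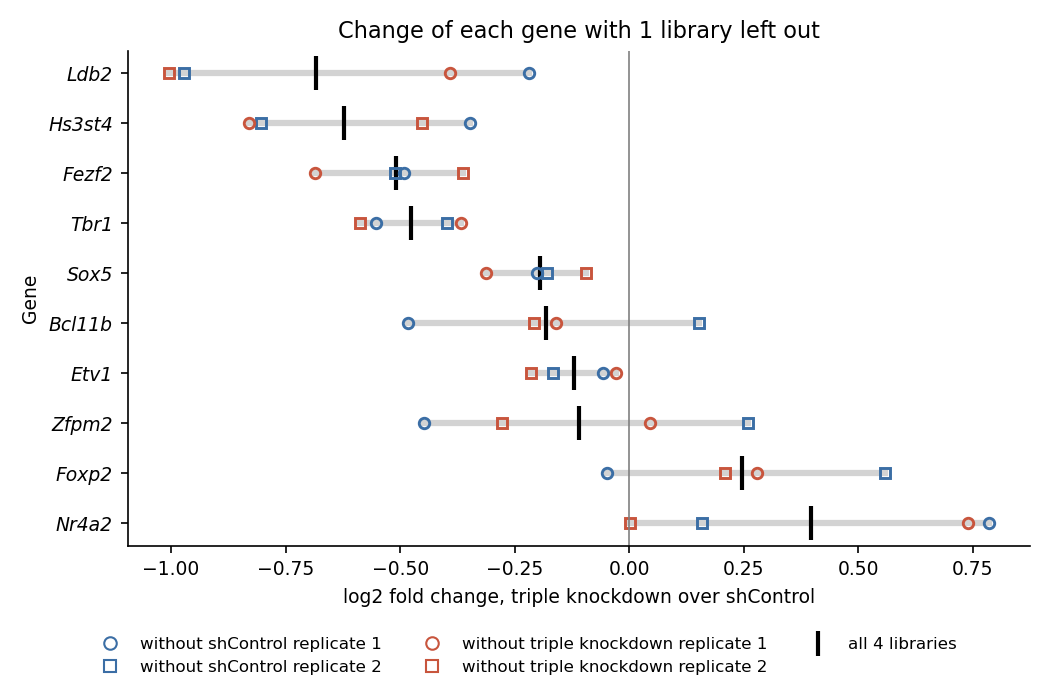
Log2 fold change of each deep-layer gene with all 4 libraries (black tick) and with 1 library left out (open symbols, coloured by the group left out). Fezf2, Tbr1, Sox5, Ldb2, Hs3st4 and Etv1 stay below 0 in every case, and Bcl11b, Zfpm2 and Foxp2 cross it.

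Compared per length, in CPM per kilobase of exon averaged over the 4 libraries, Etv1 was highest at 3.08, followed by Tbr1 at 2.18, Fezf2 at 1.55 and Bcl11b at 1.11. The other 6 lay below 1, from Hs3st4 at 0.86 to Foxp2 at 0.397. Dividing by the longest transcript in place of all exonic bases kept the order of the first 4 and moved the levels of Foxp2 and Sox5 from the bottom to 0.961 and 0.919. The order among those 6 therefore depends on the length used. In CPM, Etv1 alone made up between 40.8% and 46.3% of the summed level of the 10 genes.

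Against the neuronal content of the libraries, the summed level of the 10 genes was slightly higher in the knockdown, on a scale where 56.3% of all tested genes were higher in both knockdown libraries. Their summed level was 96.7 and 100.1 CPM in shControl and 82.3 and 90.3 CPM in the knockdown. The summed level of 15 pan-neuronal markers was 1205 and 1090 CPM in shControl and 892 and 930 CPM in the knockdown, with all 15 tested, none at 0, 3 passing as lower and 0 as higher. The 3 were Tubb3, the neuronal beta-tubulin, Nsg2, an endosomal protein, and Celf4, which binds RNA, at -0.72, -0.56 and -0.58 on the log2 scale. Their calls were lost with scaling by total count and without either triple knockdown library, that of Nsg2 also without shControl replicate 1, and that of Celf4 also with DESeq2 and a replicate block. Over the 11 alternatives their changes lay between -0.90 and -0.41. As a share of that sum, the deep-layer genes made up 8.02% and 9.18% in shControl and 9.23% and 9.71% in the knockdown. On the log2 scale the share differed by 0.14 with a pooled SD of 0.104. The groups did not overlap, but shControl replicate 2 and triple knockdown replicate 1 nearly coincided, and leaving out the first control library gave 0.04 and leaving out the second 0.24. It was 0.08 with equal weight per gene and 0.09 without Etv1. With 2 against 2 libraries an exact permutation test cannot go below p = 0.33, so none was made.

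Against 8 general markers of cortical projection neurons the difference was larger. That list summed to 80.0 and 65.7 CPM in shControl and 43.8 and 46.6 CPM in the knockdown, and the largest part of its sum was Neurod6, a helix-loop-helix factor of differentiating projection neurons. Neurod6 passed as lower (log2 fold change -1.12, edgeR adjusted p = 7.93e-07), the only 1 of the 8 that did, and it passed in all 11 alternatives. The deep-layer sum was 121% and 152% of this list in shControl and 188% and 194% in the knockdown. The log2 difference was 0.49 with a pooled SD of 0.169. This reference sum was itself lower in both knockdown libraries, so a gene with unchanged CPM would also be higher on this scale. The share of all tested genes that were higher on it was not counted. When each gene had equal weight the difference was 0.23, and without shControl replicate 1 it was 0.32. Against 9 upper-layer markers, a reference added after the data were seen, the ratio was 75.1% and 80.0% in shControl and 72.7% and 82.2% in the knockdown. There the knockdown libraries lay on either side of the controls, with a log2 difference of -0.004.

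**Figure D4:**
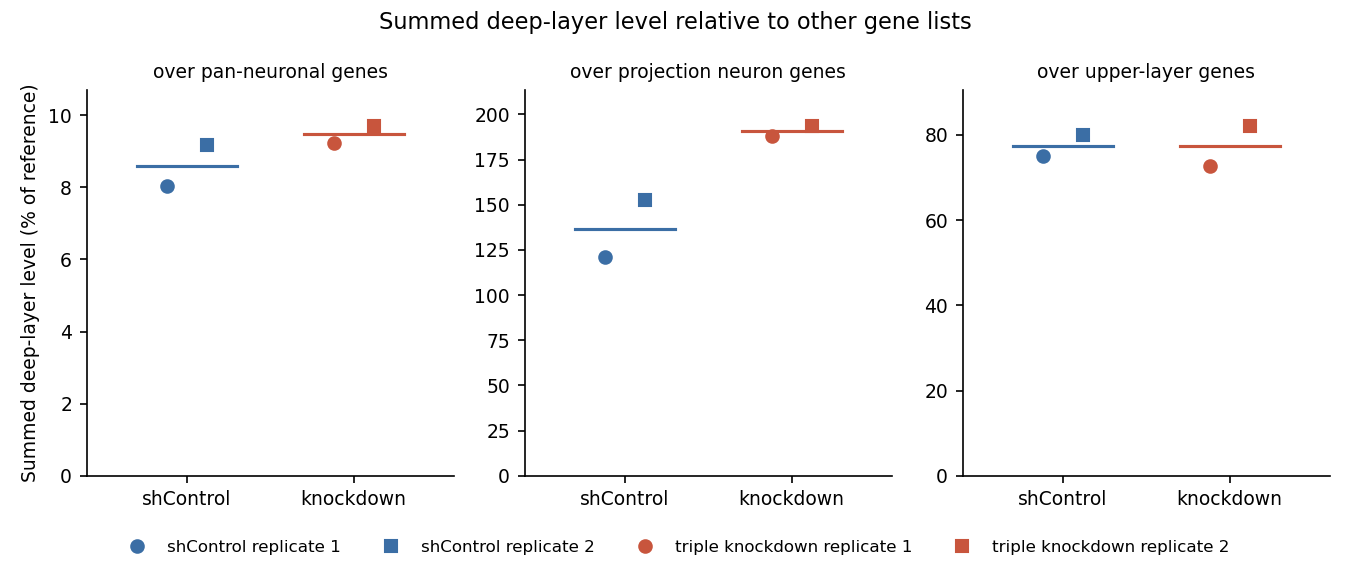
Summed level of the 10 deep-layer genes as a percentage of the summed level of pan-neuronal, projection neuron and upper-layer markers, with 1 panel per reference and a y axis from 0; circles are replicate 1, squares replicate 2 and lines the mean of 2 libraries. The knockdown libraries lie above both controls in the first 2 panels and on either side of them in the third. Each reference sum was itself lower in both knockdown libraries.

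Single genes divided by the same pan-neuronal sum kept the order of their fold changes, since all genes of a library were divided by the same number. Fezf2, Tbr1, Hs3st4 and Ldb2 differed by -0.19, -0.15, -0.27 and -0.29 on the log2 scale, and for each of them the groups overlapped. Sox5, Bcl11b and Zfpm2 differed by 0.13, 0.16 and 0.23, also with overlap. For 3 of the 10, Etv1, Foxp2 and Nr4a2, both knockdown libraries lay above both controls, with differences of 0.21, 0.58 and 0.77. The pan-neuronal sum was itself lower in the knockdown, and on this scale 56.3% of all tested genes lay wholly above and 4.23% wholly below, so 3 of 10 is not above the background. The separation of Fezf2, Tbr1, Sox5 and Hs3st4 in CPM was not present relative to pan-neuronal RNA.

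Other genes of the same neuron types did not pass as changed. Of 13 tested genes from a list of 14 layer 5 genes, 0 passed in either direction, 7 were below 0 and the median log2 fold change was -0.02. Pcp4, a calmodulin-binding protein, measured 169 and 205 CPM in shControl and 163 and 159 CPM in the knockdown. Lmo4, a LIM-only protein, measured 65.0 and 60.2 CPM against 65.3 and 67.1 CPM.

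Of 10 tested genes from a list of 11 layer 6 genes, 0 passed, 8 were below 0 and the median was -0.12, with 3 lower and 1 higher at an unadjusted p under 0.05. That median was -0.04 with scaling by total count, -0.23 and -0.24 without shControl replicate 1 or 2, and -0.30 without triple knockdown replicate 1. Nfib, a nuclear factor I protein, measured 43.2 and 45.3 CPM against 42.3 and 41.6 CPM. Rprm, or reprimo, measured 36.2 and 31.4 CPM in shControl and 27.2 and 26.3 CPM in the knockdown (log2 fold change -0.34, edgeR adjusted p = 0.313). For subplate genes 9 of 12 were tested, 0 passed, 7 were below 0 and the median was -0.03. Lmo3 measured 18.0 and 20.9 CPM against 16.5 and 16.4 CPM, and Tmem163 measured 4.51 and 3.31 CPM against 4.64 and 3.06 CPM. Cplx3, a complexin of subplate neurons chosen after its values were seen, had 0 counts in 3 of the 4 libraries. The direction of the layer 5 and subplate medians depended on the setting. That of layer 5 was above 0 with scaling by total count (0.06, where the median over all tested genes was 0.07), without a filter on low counts (0.01) and with any 1 library left out (0.02 to 0.11). That of the subplate was above 0 with scaling by total count (0.04), when shControl replicate 1 (0.14) or triple knockdown replicate 2 (0.04) was left out, and was lowest with limma-voom (-0.19).

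Genes that act on the deep-layer network did include some that fell. Of 14 such genes 2 passed as lower, 0 as higher and 12 did not pass, against 0.826% and 0.541% of all tested genes (116 lower and 76 higher, or 28 and 77 with scaling by total count). Their median log2 fold change was -0.26. Sox4, an SRY-related factor that cooperates in the activation of Fezf2, fell from 146 and 156 CPM to 96.8 and 102 CPM. Its log2 change was -0.60 (SE 0.13, edgeR adjusted p = 0.00528). More than 50% of its exonic bases (54.6%) overlap the antisense gene Gm26735, so reads of both cannot be told apart without strand. Nr2f1, a nuclear receptor known to hold back the corticospinal programme, fell from 49.6 and 48.2 CPM to 33.4 and 34.3 CPM (a log2 change of -0.53 with an SE of 0.14; edgeR adjusted p = 0.0288). The knockdown libraries lay well below the controls for both genes. Neither call held when libraries were scaled by total count alone or when either triple knockdown library was left out, and that of Nr2f1 was also lost with DESeq2 and with a replicate block. Over the 11 alternatives the change ranged from -0.65 to -0.51 for Sox4 and from -0.55 to -0.45 for Nr2f1. Both calls held without the mitochondrially encoded genes, whose share of counts was lower in both knockdown libraries.

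**Figure D5:**
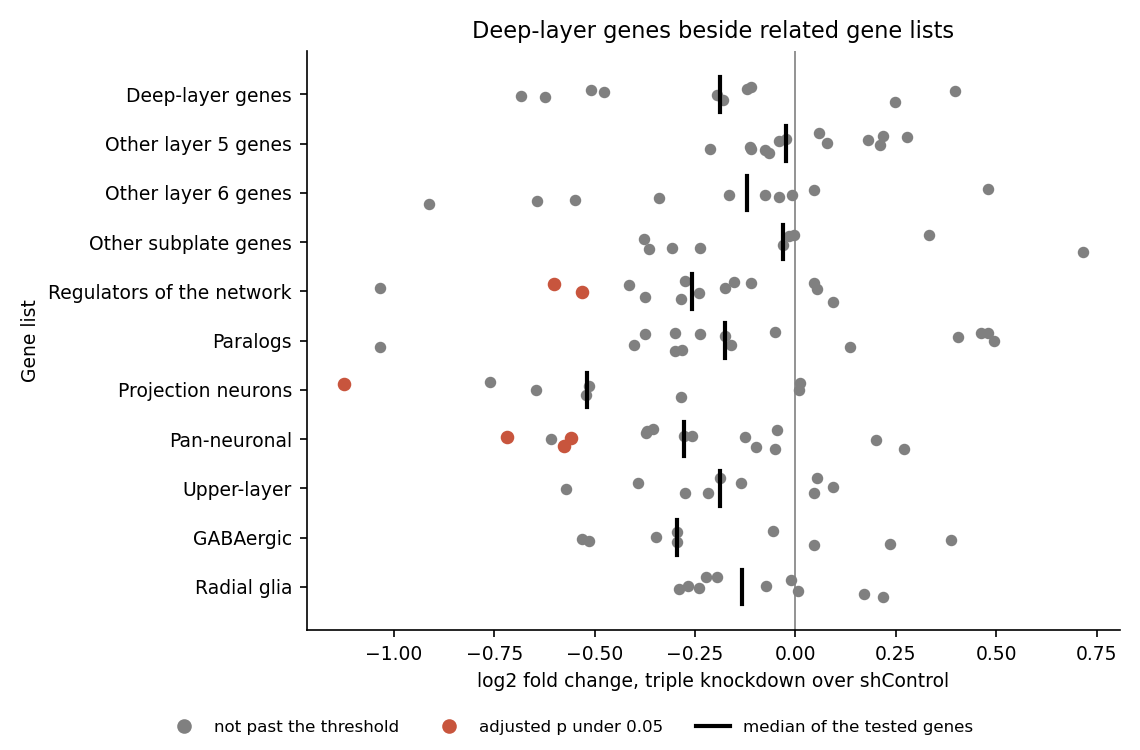
Log2 fold changes of the tested genes in each list, with black bars at the list medians and red points for genes with an adjusted p under 0.05. No red point lies among the deep-layer genes or the other layer 5, layer 6 and subplate genes, and the projection neuron list has the lowest median of those drawn.

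Close relatives of the 10 genes were measured beside them, and 0 of 15 tested paralogs (of 20) passed, with a median log2 fold change of -0.17. Scaling by total count gave -0.11. Leaving out shControl replicate 1 gave -0.04, leaving out triple knockdown replicate 1 gave -0.09 and leaving out shControl replicate 2 gave -0.28. Those named here were chosen after their values were seen, except Ldb1 and Etv5. Per kilobase of exon, Ldb1, the broadly expressed relative of Ldb2, was at 7.29 CPM against 0.70 for Ldb2, and measured 39.8 and 34.2 CPM in shControl and 29.7 and 30.6 CPM in the knockdown. Etv5 and Etv4, which with Etv1 form the PEA3 group of ETS factors and are targets of fibroblast growth factor signalling, were at 5.92 and 5.82 per kilobase, above Etv1 at 3.08. By the longest transcript Etv5 was at 6.12, just below Etv1 at 6.23, and Etv4 was at 7.54. Etv5 measured 21.6 and 24.8 CPM against 24.8 and 26.1 CPM, although 30.3% of its 31-base stretches occur in another gene. Etv4 measured 21.9 and 17.1 CPM against 16.8 and 16.5 CPM. Eomes, the T-box relative of Tbr1 that marks intermediate progenitors, measured 3.30 and 4.36 CPM in shControl and 1.92 and 1.76 CPM in the knockdown (a log2 change of -1.03 with an SE of 0.32; edgeR adjusted p = 0.0907).

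Markers of other cells that express some of the same genes were present. Of 9 tested genes of GABAergic neurons and their progenitors (of 10), 0 passed, 6 were below 0 and the median was -0.29. Their summed level was 120 and 109 CPM in shControl and 92.5 and 94.7 CPM in the knockdown, so it was lower in both knockdown libraries. Dlx1, a homeobox factor of ventral progenitors, measured 38.4 and 32.9 CPM against 28.4 and 27.8 CPM. Lhx6, which marks migrating cortical interneurons and was named after its values were seen, had too few counts to be tested. It had 6 and 0 counts in shControl and 2 and 1 in the knockdown. The part of these cells in the levels of Bcl11b, Foxp2 and the other deep-layer genes was not tested. Among the remaining lists, radial glia genes had a median of -0.13 (0 of 10 passed), upper-layer genes -0.19 (0 of 9) and Cajal-Retzius genes -0.31 (1 of 5 tested, Calb2, lower). Oligodendrocyte-lineage genes had a median of 0.04 (0 of 7), myeloid genes -0.10 (0 of 5 tested), vascular genes 0.20 (0 of 5 tested) and red blood cell genes 0.56 (1 of 6 tested, Hbb-y, higher). The calls of Calb2 and Hbb-y were lost with scaling by total count and without triple knockdown replicate 1, and that of Hbb-y also without triple knockdown replicate 2, with DESeq2 and with a replicate block. Their changes ranged from -0.86 to -0.56 and from 0.41 to 0.81 over the 11 alternatives.

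The regions before the RefSeq start sites differed widely among the genes that stood lower in both knockdown libraries in TMM-scaled CPM. The RefSeq promoter table (GRCm38.p6) held windows for 7 of the 10 genes, and the 250 bases before the start were examined in each of 8 windows (Etv1 has 2). Foxp2, Zfpm2 and Ldb2 had no entry. The sequences below are of Hs3st4, Sox5 and Fezf2. These genes were chosen as lower in both knockdown libraries in TMM-scaled CPM, with windows that hold bases outside every GENCODE M21 exon. The sequences run 5′ to 3′ on the strand of the gene, with CG dinucleotides in capitals. That feature was chosen after the data were seen.
Hs3st4, chr7:123982578-123982827, plus strand: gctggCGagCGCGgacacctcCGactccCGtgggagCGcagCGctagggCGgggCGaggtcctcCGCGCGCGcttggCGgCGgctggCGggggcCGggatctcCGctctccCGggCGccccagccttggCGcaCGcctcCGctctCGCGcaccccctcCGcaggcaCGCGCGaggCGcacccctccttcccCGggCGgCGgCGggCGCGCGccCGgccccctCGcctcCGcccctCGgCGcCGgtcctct
Sox5, chr6:143947107-143947356, minus strand, at a start site within the gene: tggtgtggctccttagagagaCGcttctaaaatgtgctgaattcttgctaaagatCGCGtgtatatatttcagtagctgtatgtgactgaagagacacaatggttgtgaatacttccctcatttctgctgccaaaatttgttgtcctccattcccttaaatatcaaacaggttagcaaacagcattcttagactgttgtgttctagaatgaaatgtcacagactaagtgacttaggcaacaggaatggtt
Fezf2, chr14:12345960-12346115, minus strand, the exon-free part of its window, also at a start site within the gene: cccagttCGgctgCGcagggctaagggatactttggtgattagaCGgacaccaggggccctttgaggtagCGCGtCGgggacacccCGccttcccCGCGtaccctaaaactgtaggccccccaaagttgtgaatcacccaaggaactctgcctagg
The Hs3st4 window held 43 CG dinucleotides and was 82.0% G and C, and 99.3% of all 32851 windows of this length held fewer. Its Sox5 counterpart held 3 and was 39.6% G and C, with 29.0% of windows holding fewer. The whole Fezf2 window held 14, and that of Tbr1, which lies wholly in exons, held 5. The median over all windows was 6, and 92.1% of windows held at least 1. Nr4a2, whose estimate was above 0, had a window as rich as that of Hs3st4, with 44. The motif TGCCGC, which the targeted factor Zfp57 is known to bind when methylated, was searched on both strands. It was in 0 of the 8 windows and in 8.68% of all windows. The E-box CANNTG, read by helix-loop-helix factors such as Neurod6, was in 2 of the 8 windows, 1 of Tbr1 and 1 of Etv1, and in 66.2% of all windows. Both of those windows lie within the gene and are mostly exonic, with 0 of 250 bases outside exons for Tbr1 and 9 for Etv1. The motifs overlapped in none of these windows, as none held TGCCGC. A match or its absence describes these letters in this window only.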

How the data were processed

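RNA from 4 libraries, 2 per group, was analysed. The table the authors deposited gives estimated counts by gene, without normalization. Per the submitters' processing notes it was made with Salmon on GRCm38 and mm10. The sources used here give no annotation release. Between 23.1% and 25.1% of values were not whole and were rounded. Totals ranged from 14694387 to 20779211 counts, and the lowest member rests on 19 to 48 counts. Identifiers were matched without version to GENCODE M21 (34652 of 34866). Both replicate pairs differed by more than sampling noise (chi-square per degree of freedom 15.5 and 6.38).

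The test was edgeR's (version 4.0.16, R 4.3.3), with TMM factors, filterByExpr with a minimum count of 10, a robust quasi-likelihood fit on group alone and a two-sided F test, with Benjamini-Hochberg adjustment over 14050 genes and a threshold of 0.05. The SE is the log2 fold change divided by the square root of F. Each test of a member had 82.5 degrees of freedom, because edgeR draws the spread largely from all genes together. Its p-value, SE and interval are therefore not set by the replicate spread of that gene alone. This procedure was checked on simulated data with the same spread set for every gene and changes larger than any estimate of the 10 genes. That check does not cover changes of their size. The alternatives were scaling by total count, DESeq2 1.42.0, limma-voom (limma 3.58.1), other filters, removal of mitochondrially encoded genes, a replicate block and leaving out each library.

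The members and lists were chosen with earlier results of these data known. The rule for named genes took all 10 members, the 3 targets and, from each list, up to 3 genes past the threshold or else up to 2 of the highest CPM. No set test was made. Some genes of the lists are not reported by name here.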

Additional observations from a re-analysis of the deposited data

How the results depend on the processing

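Across 11 alternatives 0 of the 10 deep-layer genes passed the threshold, while at an unadjusted p under 0.05 their number ranged from 0 (total count alone) to 4 (no filter on low counts, and without shControl replicate 2). Fezf2, Tbr1, Sox5, Ldb2, Etv1, Hs3st4 and Nr4a2 kept their direction in all 11. With 1 library left out Bcl11b ranged from -0.48 to 0.15, Foxp2 from -0.048 to 0.56 and Zfpm2 from -0.45 to 0.26, so these 3 changed direction, Zfpm2 at 0.05 without triple knockdown replicate 1. The median log2 fold change of the 10 genes was -0.10 with scaling by total count, where that over all tested genes was 0.07, and ranged from -0.28 to -0.17 with 1 library left out. The difference against projection neuron markers was 0.23 with equal weight per gene and 0.32 to 0.66 with 1 library left out, and that against pan-neuronal markers was 0.08 and 0.04 to 0.24. Over all tested genes, 192 passed (76 higher, 116 lower). There were 105 with scaling by total count (77 higher, 28 lower), 69 with DESeq2, and between 44 and 614 with 1 library left out. The cause of these shifts was not tested. No label says that libraries of the same replicate number were made as a pair. Deviations of same-numbered libraries had a correlation of -0.06, which with 2 libraries per group cannot settle that. With the number as a replicate block, 172 genes and 0 of the 10 passed, and the median of the 10 was -0.18. Counts were lowest for Nr4a2, Ldb2 and Hs3st4, at 19 to 83 per library.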
